A study of Cucumis melo with 6 samples.

Results

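The genes described here are 47 of the 28299 annotated melon genes whose transcripts stood among the 150 most abundant in leaves of the double mutant lhp1ab but not among the 150 most abundant in wild-type (WT) leaves. They were chosen by the measured levels themselves. CPM, the counts of a gene scaled to a common library total, were averaged over the 3 libraries of each genotype, both lists of 150 were drawn, and 10 further genes that were at least 16-fold higher in lhp1ab were set aside. Levels, ranks, shares and ratios of the 47 genes are therefore a description of what was selected, and no test of the 47 as a set is given. Calls from a test run on every gene are counted beside those of all tested genes, and nothing is read from them.

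The lhp1ab leaves came from a line of the CharMONO background carrying 2 EMS-induced (chemically induced) point mutations, G1970A in CmLHP1A and C1930T in CmLHP1B, with positions counted in the genomic sequence from the start codon. The WT leaves came from the monoecious inbred line CharMONO itself, a Charentais-type cantaloupe whose plants carry male and female flowers apart. Plants of both genotypes were raised in pots under glass in long days of 16 h, at 27 °C by day and 21 °C by night. Poly(A) RNA of leaves was sequenced strand by strand, in 3 libraries per genotype that the series calls biological replicates. The plant age, the leaf position and whether a library pools several plants are unknown here, and the spread between libraries may be partly technical.

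LHP1 is a plant chromodomain protein that binds histone H3 trimethylated at lysine 27, the mark that Polycomb proteins set on silent genes, and in Arabidopsis it is known for keeping such genes silent. The most abundant poly(A) transcripts of a leaf are typically those of nuclear genes for photosynthesis, such as the small subunit of Rubisco and the chlorophyll-binding proteins. A CPM is a share of the library, so a higher share of some genes is necessarily a lower share of others. In whole leaves, more cells of a type and more RNA per cell cannot be told apart.

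Neither the count tables nor a reference table of 28628 melon genes on a different assembly names any of the 28299 identifiers. No function is therefore given for any of the 47 genes, the leaf label and the mutated genes could not be checked by markers, and no sequence was at hand to print. Genes are described by position on release 4.0 of the melon genome, by exon structure and by level. Each is called by its rank in lhp1ab mean CPM, so that gene 22 is the one at rank 22 there. The 2 most abundant are maker-Chr4-exonerate_est2genome-gene-320.12 (gene 22) and maker-Chr6-exonerate_est2genome-gene-300.27 (gene 42).

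Library totals were 15335390 to 17647188 counts in lhp1ab and 20551374 to 22366054 in WT. The lowest count of any of the 47 genes was 7385 in an lhp1ab library and 1652 in a WT library. The count of 1652 has an exact 95% Poisson interval of 1573 to 1734, which covers counting error only. All 47 genes passed the filter on low counts. Library pairs within a genotype differed by more than counting noise, with a chi-square per degree of freedom of 3.44 to 11.4 in lhp1ab and 2.14 to 6.56 in WT. Replicate 1 took part in the largest values of lhp1ab, and replicate 3 in the largest of WT.

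Together the 47 genes held 4.62%, 4.43% and 4.41% of the counts in lhp1ab replicates 1, 2 and 3, against 1.65%, 1.64% and 1.66% in the WT replicates. The means were 4.49% ± 0.119 in lhp1ab and 1.65% ± 0.00620 in WT (SD, n = 3 each), a difference of 2.84 percentage points. All 47 genes were called higher in lhp1ab by edgeR's quasi-likelihood test at a Benjamini-Hochberg adjusted p of 0.05, where 36.9% of the 17988 tested genes were. For 46 of them every lhp1ab library lay above every WT library in CPM, as it did for 35.5% of tested genes. With edgeR's test against a 1.5-fold change, 39 of the 47 were called higher, where 20.9% of tested genes were. These counts follow from the way the genes were chosen. The median ratio of lhp1ab to WT mean CPM was 2.58 over the 47 genes and 0.952 over all tested genes.

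**Figure D1:**
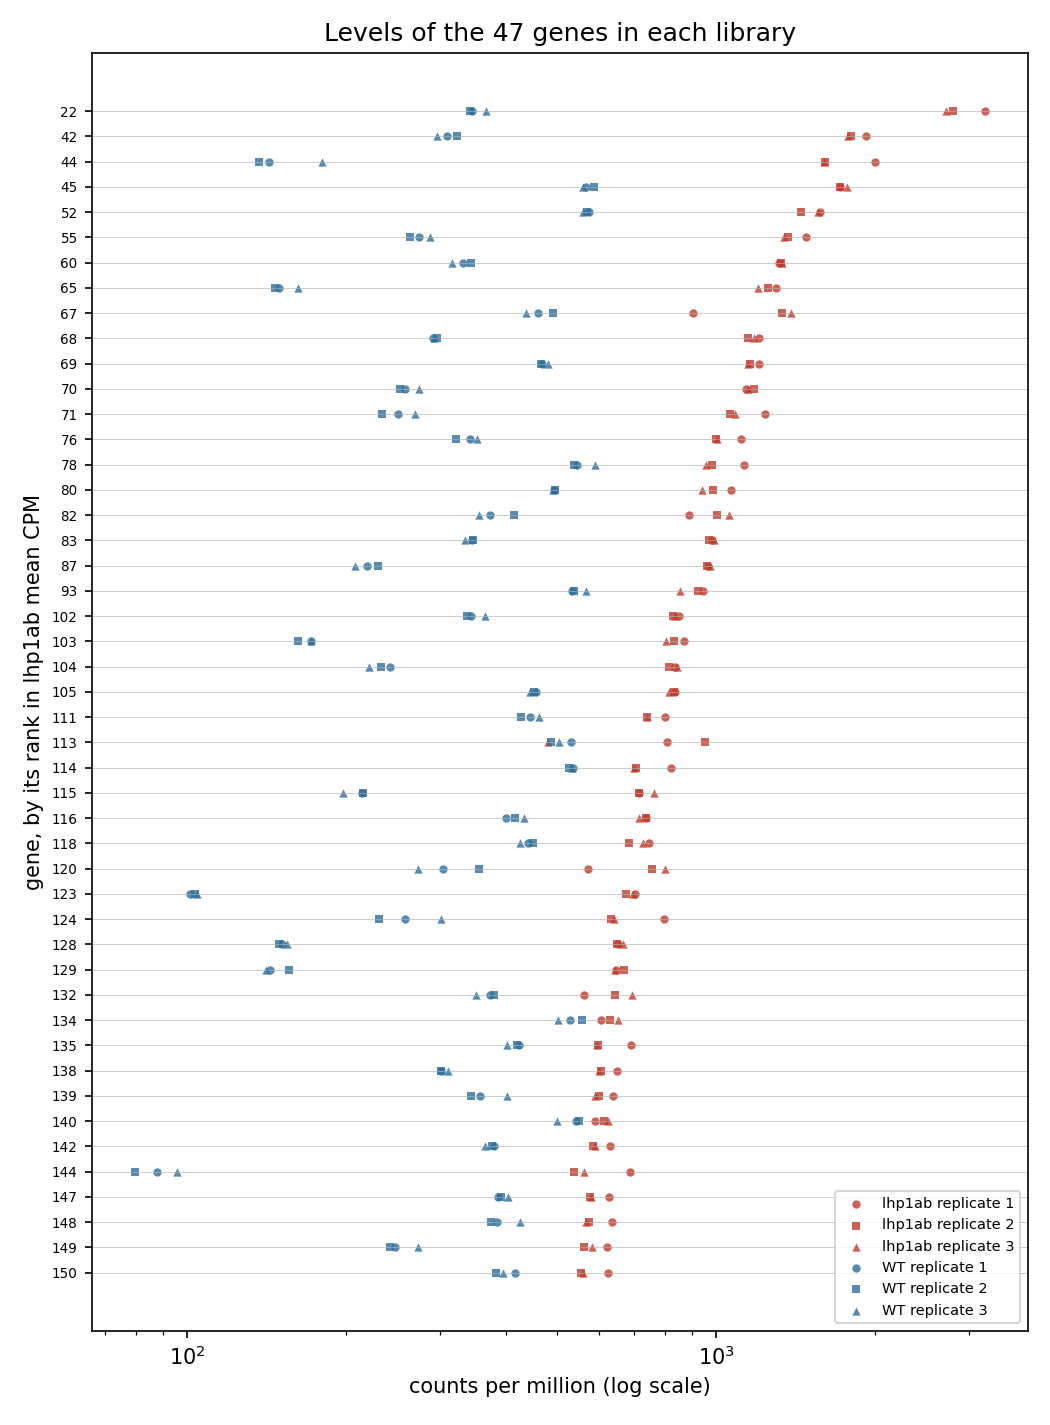
CPM on a log axis for each of the 47 genes, 1 row per gene in the order of its rank in lhp1ab, with 1 symbol per library (lhp1ab in red, WT in blue). The red symbols lie right of the blue ones in every row but that of gene 113, whose lhp1ab replicate 3 (482 CPM) lies under all WT libraries.

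The genes took up 16.4% of the counts of the 150 most abundant lhp1ab genes. Those 150 genes held 27.4% ± 1.44 of the counts in lhp1ab and 19.7% ± 0.178 in WT (SD, n = 3 each). They were listed for being high in lhp1ab, which widens that difference. The 150 highest genes of WT held 22.96% of the WT counts. Each genotype taken by its own list, the difference was 4.41 points. Of the difference of 7.68 points over the lhp1ab list, the 47 genes made up 37.0%. The 93 genes that were among the 150 highest of both genotypes made up 39.5%, and the 10 genes over the 16-fold limit 23.6%. In the 93 genes the difference rested partly on 1 library, with 22.5%, 20.4% and 20.2% of counts in lhp1ab replicates 1 to 3 and 18.02%, 18.2% and 17.8% in the WT libraries. Without lhp1ab replicate 1 their difference was 2.32 points in place of 3.03, and that of the 47 genes was 2.77 points.

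Both lists hold 150 genes, so as many genes necessarily left the upper 150 as entered it. The 57 genes that stood among the 150 highest of WT alone held 2.15% ± 0.0703 of the counts in lhp1ab and 4.96% ± 0.0296 in WT (SD, n = 3 each), a difference of -2.81 points. The way these 57 genes were listed fixes the direction of that difference. Their median ratio was 0.435, and that of the 93 shared genes was 1.03. Set against each other, the entering genes (the 47 and the 10) held 6.33% of lhp1ab counts, which is 1.37 points above what the leaving genes held in WT.

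**Figure D2:**
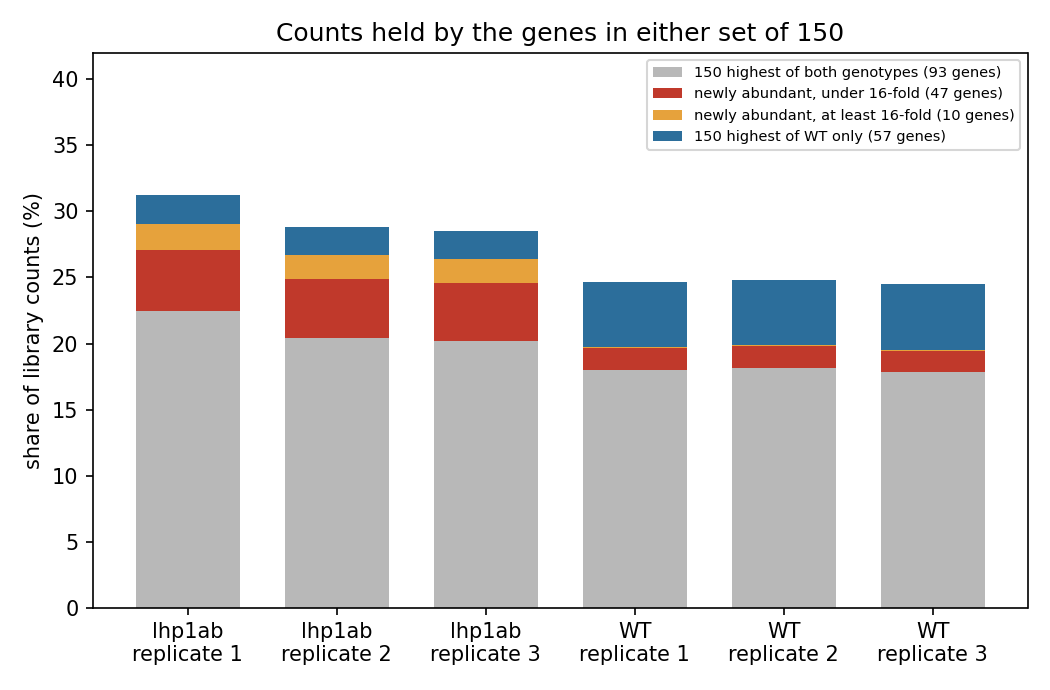
Stacked bars from 0 of the percent of library counts held by 4 sets of genes, 1 bar per library, lhp1ab left and WT right. The red part, the 47 genes, covers 4.41 to 4.62% in lhp1ab and 1.64 to 1.66% in WT, while the blue part, the genes among the 150 highest of WT alone, is the larger one in WT.

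The lower limit of the upper 150 was not the same in both genotypes. Rank 150 lay at 580 CPM in lhp1ab and at 631 CPM in WT. Only 132 genes reached 631 CPM in lhp1ab, although more genes exceeded 2000 CPM there (34 in lhp1ab, 28 in WT). Of the 47 genes, 36 had a mean of at least 631 CPM in lhp1ab, a level that lies within the upper 150 of WT. The other 11 lay between both limits, with ratios of 1.15 to 6.80. Single libraries placed 44 of the 47 among their own 150 highest in each of lhp1ab replicates 1, 2 and 3, and 40 of them in all 3. None of the 47 was among the 150 highest of any WT library, and the nearest stood at rank 167 in one of them.

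At the lhp1ab limit, the last genes included were gene 148 (593 CPM in lhp1ab, 396 CPM in WT), gene 149 (589 CPM in lhp1ab, 254 CPM in WT) and gene 150 (580 CPM in lhp1ab, 398 CPM in WT). The first left out, at ranks 151 to 153, had 579, 578 and 575 CPM in lhp1ab against 505, 473 and 336 CPM in WT. At the WT limit there was a gap. The best WT ranks among the 47 were 181 (gene 45), 183 (gene 52) and 185 (gene 78), and the lowest-ranked WT genes that stayed among the 150 highest of both genotypes stood at WT ranks 137, 144 and 148. None of the 30 genes at WT ranks 151 to 180 reached the upper 150 of lhp1ab. Their ratios ran between 0.0749 and 0.922, with a median of 0.450. Their WT means lay above the 572 CPM of gene 45, so missing the lhp1ab limit of 580 CPM already caps their ratios close to 1. At the fold limit, the nearest genes inside had ratios of 11.3, 8.27 and 8.19, and the nearest outside 16.3, 18.5 and 19.0. The gene at 16.3 had 664 CPM in lhp1ab and 40.8 CPM in WT, and its ratio was 15.9 without lhp1ab replicate 1.

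**Figure D3:**
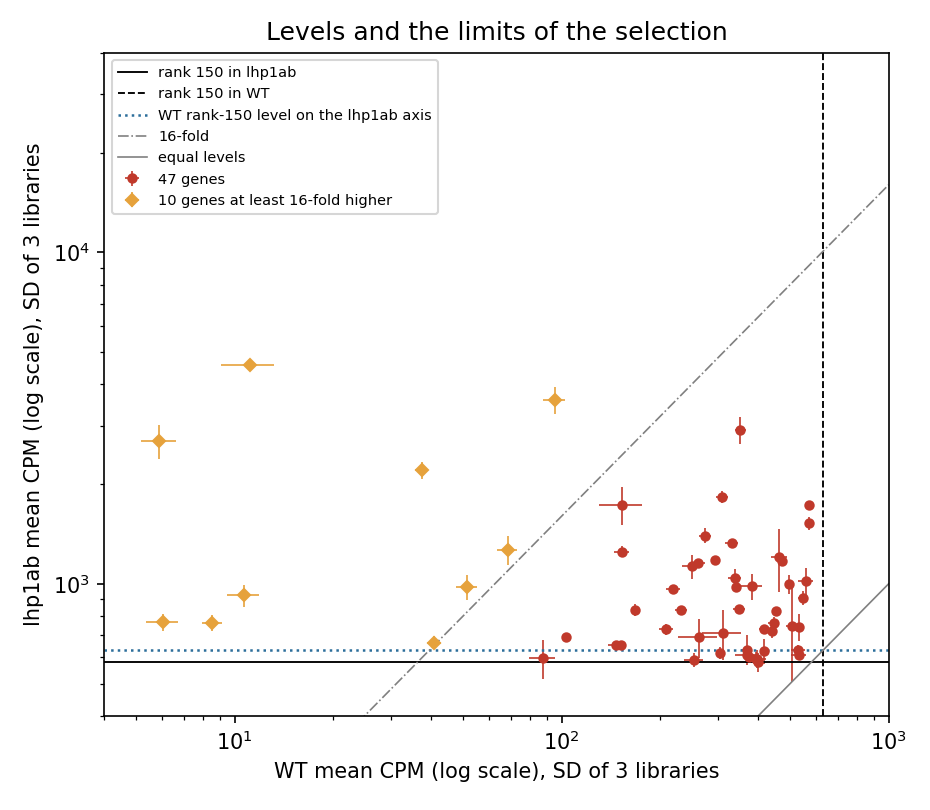
Mean CPM in lhp1ab against mean CPM in WT, both on log axes with SD of 3 libraries, for the 47 genes (red) and the 10 genes over the 16-fold limit (orange), with lines at the limits of the selection. The 11 red points between the solid line (580 CPM) and the dotted line (631 CPM) are genes whose lhp1ab level lies under the WT limit.

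The differences were spread over many genes. Gene 22 alone accounted for 9.02% of the summed difference of the 47 genes, the 5 genes with the largest differences for 28.0% and the 10 with the largest for 45.0%, and 12 genes were needed to pass the midpoint. Divided by fold, the 3 genes between 8-fold and 16-fold higher brought 0.524 points, the 12 genes between 4-fold and 8-fold 0.982 points, the 15 genes between 2-fold and 4-fold 0.908 points, and the 17 genes under 2-fold 0.426 points. These 17 genes held 1.19% ± 0.0495 of the counts in lhp1ab and 0.767% ± 0.00501 in WT (SD, n = 3 each). They stood at WT ranks 185 to 336, and the 12 genes between 4-fold and 8-fold at WT ranks 401 to 2422. The lhp1ab limit of 580 CPM ties small ratios to high WT levels, so these ranks partly follow from the choice.

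Among the 3 genes over 8-fold, gene 44 had the largest ratio. This short 3-exon gene on chromosome 8 (30971605 to 30972592, plus strand, 566 exon bases) had 1994, 1609 and 1596 CPM in the lhp1ab libraries against 143, 137 and 180 CPM in the WT libraries. The genotypes were far apart, and the highest library of each was replicate 1 in lhp1ab and replicate 3 in WT. Its ratio of 11.3 was 10.5 without lhp1ab replicate 1.

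Gene 22, with 3 exons on chromosome 4 (32073910 to 32075730, plus strand), was the most abundant of the 47 and the only one above 2000 CPM. It had 3222, 2798 and 2717 CPM in lhp1ab against 346, 343 and 368 CPM in WT, with means of 2912 ± 271 CPM in lhp1ab and 352 ± 13.7 CPM in WT (SD, n = 3 each) and a ratio of 8.27. Gene 65, with 8 exons on chromosome 2 (2492741 to 2496147, minus strand), had 1296, 1254 and 1202 CPM in lhp1ab against 149, 147 and 162 CPM in WT, a ratio of 8.19. Gene 65 stood at rank 1168 in WT and gene 44 at rank 1165, while gene 22 was already at rank 359.

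Of the 12 genes between 4-fold and 8-fold, gene 42 was the most abundant. It has 3 exons on chromosome 6 (30000762 to 30002850, minus strand) and had 1923, 1801 and 1774 CPM in lhp1ab against 310, 323 and 296 CPM in WT, a ratio of 5.92. Gene 144, a single-exon gene near the end of chromosome 1 (184798 to 185580, minus strand), came from the lowest WT rank, 2422. It had 687, 539 and 563 CPM in lhp1ab against 87.8, 79.6 and 95.7 CPM in WT, a ratio of 6.80.

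Gene 123 on chromosome 11 (29079210 to 29083500, plus strand, 8 exons) had a similar ratio with hardly any spread. Its values were 702, 675 and 697 CPM in lhp1ab against 101, 103 and 104 CPM in WT, a ratio of 6.72 from WT rank 1953. Gene 55 on chromosome 8 (1822835 to 1824309, plus strand, 2 exons) had 1480, 1368 and 1346 CPM in lhp1ab against 274, 264 and 287 CPM in WT, a ratio of 5.08. Gene 60 on chromosome 2 (1386476 to 1391312, plus strand) has 19 exons and had 1316, 1328 and 1330 CPM in lhp1ab against 332, 344 and 316 CPM in WT, with means of 1325 CPM in lhp1ab and 331 CPM in WT. All libraries of lhp1ab stood above all of WT in each of these genes.

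Low WT ranks were also held by genes 129 (rank 1220), 128 (rank 1179) and 65. Gene 129, with 7 exons on chromosome 9 (14563274 to 14571019, minus strand), had 646, 668 and 643 CPM in lhp1ab against 143, 156 and 141 CPM in WT, a ratio of 4.45. Gene 128, with 9 exons on chromosome 3 (28619943 to 28625103, minus strand), had 652, 648 and 666 CPM in lhp1ab against 151, 149 and 154 CPM in WT, a ratio of 4.33. Gene 68, with 2 exons on chromosome 1 (34782171 to 34784981, plus strand), had 1206, 1147 and 1180 CPM in lhp1ab against 291, 297 and 293 CPM in WT, a ratio of 4.01. In genes 129, 128 and 68 the libraries of each genotype were close together and the genotypes did not overlap. The remaining genes of this class, 70, 71, 87 and 103, had ratios between 4.41 and 4.96.

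The 15 genes between 2-fold and 4-fold included genes 45, 52, 67 and 69, 4 of the 11 most abundant of the 47. Gene 45 on chromosome 4 (25748728 to 25751850, minus strand, 5 exons) had 1712, 1713 and 1769 CPM in lhp1ab against 568, 587 and 561 CPM in WT, a ratio of 3.03. Gene 52 on chromosome 7 (22146098 to 22151012, plus strand, 6 exons) had 1572, 1447 and 1560 CPM in lhp1ab against 575, 571 and 561 CPM in WT, a ratio of 2.68. Both were close to the WT limit already.

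Gene 67 was less even. With 16 exons and 4116 exon bases on chromosome 3 (19763399 to 19772885, minus strand), it had 904, 1330 and 1384 CPM in lhp1ab against 461, 491 and 438 CPM in WT. Its ratio was 2.60, or 2.93 without lhp1ab replicate 1, the low library. Genes 69, 76, 80, 82, 83, 102, 104, 115, 120, 124, 138 and 149, the rest of this class, had ratios between 2.02 and 3.59.

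The differences of the 17 genes under 2-fold ran from 77.8 CPM (gene 140) to 464 CPM (gene 78). Gene 78 reached 1021 CPM in lhp1ab, while several others, gene 140 with 609 CPM among them, stayed under the WT limit of 631 CPM. The smallest ratios were 1.15 (gene 140), 1.19 (gene 134), 1.39 (gene 114), 1.46 (gene 150) and 1.47 (gene 113). Gene 140, a single-exon gene on chromosome 6 (18246251 to 18247345, plus strand), had 590, 613 and 624 CPM in lhp1ab against 542, 551 and 500 CPM in WT, and the genotypes did not overlap. Gene 134, with 5 exons on chromosome 11 (20273269 to 20277038, plus strand), had 605, 630 and 652 CPM in lhp1ab against 529, 557 and 503 CPM in WT.

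Gene 114, with 4 exons on chromosome 1 (2726444 to 2729372, minus strand), had 821, 707 and 699 CPM in lhp1ab against 537, 526 and 534 CPM in WT. Gene 113 was the exception in spread. With 9 exons on chromosome 4 (15022961 to 15027583, plus strand), it had 808, 953 and 482 CPM in lhp1ab against 531, 488 and 504 CPM in WT, so that replicate 3 of lhp1ab lay under all WT libraries. Its coefficient of variation was 32.3% in lhp1ab, the highest of the 47, and 4.29% in WT, and its place in the list rests on replicates 1 and 2 of lhp1ab. Gene 113 overlaps another gene on the opposite strand. The rest of the class, 78, 93, 105, 111, 116, 118, 132, 135, 139, 142, 147 and 148, had ratios up to 1.83.

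Per exon length, the 47 genes had a lower median level than the 93 genes of both lists. By CPM the rule itself had placed each of the 47 under each of the 93 in WT. RPKM, the CPM divided by the exon length in kilobases, had a median of 556 in lhp1ab and 196 in WT over the 47 genes. The 93 genes of both lists had medians of 957 in lhp1ab and 1098 in WT, and all tested genes 12.02 in lhp1ab and 12.11 in WT. Within the 47, lhp1ab RPKM ran from 143 (gene 120, 32 exons, 4965 exon bases) to 3062 (gene 44). By this measure 31 of the 47 were among the 150 highest genes of lhp1ab and none was among the 150 highest of WT. The other 16 entered the upper 150 by CPM alone, which is not divided by exon length. They included gene 120 with 4965 exon bases, and gene 149 with 1435, fewer than the median of 1624 over the 47.

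Position and structure were not used in the choice. The genes lay on all 12 chromosomes, from 1 on chromosome 9 to 6 on chromosome 4, which hold 7.24% and 10.5% of the tested genes. No pair of them was adjacent. The closest, genes 147 and 70 on chromosome 1, lay 230 kb apart with 25 annotated genes between them, and the median distance from one to the next on a chromosome was 3970 kb. The minus strand carried 29 and the plus strand 18 of them, while tested genes were split into 9001 and 8987.

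The 47 genes had a median of 5 exons and 1624 exon bases, tested genes a median of 5 exons and 1601 bases, and the 93 genes of both lists 4 exons and 1415 bases. A single exon was annotated in 8 of the 47, or 17.02% (exact 95% binomial interval 7.65 to 30.8%), against 15.5% of tested and 26.2% of all genes. At least 10 exons were annotated in 10 of the 47 (21.3%), in 19.6% of tested genes, in 12.9% of the 93 genes and in 10.5% of the 57 genes that left the upper 150. None of the 47 overlapped a gene on its own strand, where the counting would have given the same reads to both, as 3.91% of tested genes did. An overlap on the opposite strand was annotated for 6 of the 47 (12.8%) and for 13.5% of tested genes. Gene copies that are nearly identical could not be picked out here, and their counts would be uncertain.

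Shares of higher and lower calls were also taken for the genes next to the 47. Of the 94 nearest tested neighbours on either side, 34 (36.2%) were called higher in lhp1ab, beside 36.9% of all tested genes, and 42 (44.7%) were called lower, beside 38.5%. The median log2 fold change of the neighbours was -0.11, and that of all tested genes was -0.02.

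The choice was repeated with each library left out, and the chosen genes were read in that library. With lhp1ab replicate 1 left out, 48 genes were chosen on the other 5 libraries, and 41 of them were among the 150 highest of the library left out. With lhp1ab replicate 2 or 3 left out, 47 and 48 genes were chosen, and 44 were among the 150 highest of the left-out library each time. All 48, all 47 and 47 of 48 of these genes lay above all WT libraries in lhp1ab replicates 1, 2 and 3. The choice had used the same WT libraries and the other lhp1ab libraries, so these counts largely follow from it. Among all tested genes, 35.5% had every lhp1ab library above every WT library. That condition is stricter than the one for the left-out library alone, whose share over tested genes is not given here. With a WT library left out, the 47 or 48 chosen genes all stood outside the 150 highest of that library. So do nearly all of the 28299 annotated genes, and this outcome was nearly fixed in advance.

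The spread between libraries of a genotype varied with exon length. Each library was set against the mean of the other 2 of its genotype. In lhp1ab replicate 1 the log2 ratio had a Spearman correlation of -0.68 with exon length across the 47 genes, and of 0.61 and 0.60 in lhp1ab replicates 2 and 3. In WT it was -0.0003, 0.61 and -0.53 in replicates 1, 2 and 3. These are descriptions across genes, and the libraries of a genotype are set against each other, so the signs within a genotype are tied. The 93 genes of both lists gave -0.79 in lhp1ab replicate 1 and -0.70 in WT replicate 3, and the tested genes with reads gave -0.43 over 17948 genes and -0.30 over 17882.

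Short genes stood higher in lhp1ab replicate 1 and in WT replicate 3 than in the other libraries of their genotype. The 15 shortest of the 47 (566 to 1404 bases) had a median log2 ratio of 0.17 in lhp1ab replicate 1, where 14 of the 15 were above the other libraries, and of 0.09 in WT replicate 3. The 15 longest (1892 to 4965 bases) had medians of -0.01 and -0.03 there. Gene 120, with 573, 757 and 802 CPM in lhp1ab and 305, 356 and 273 CPM in WT, had its low values in those libraries, and so had gene 67. Gene 124, with 609 exon bases, had its high values there, with 798, 632 and 640 CPM in lhp1ab against 258, 230 and 302 CPM in WT. The part of this length trend in the selection was not tested. With both libraries left out, 47 genes were chosen, 43 of them the same, and the difference in share of the 47 genes described here was 2.78 points.

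**Figure D4:**
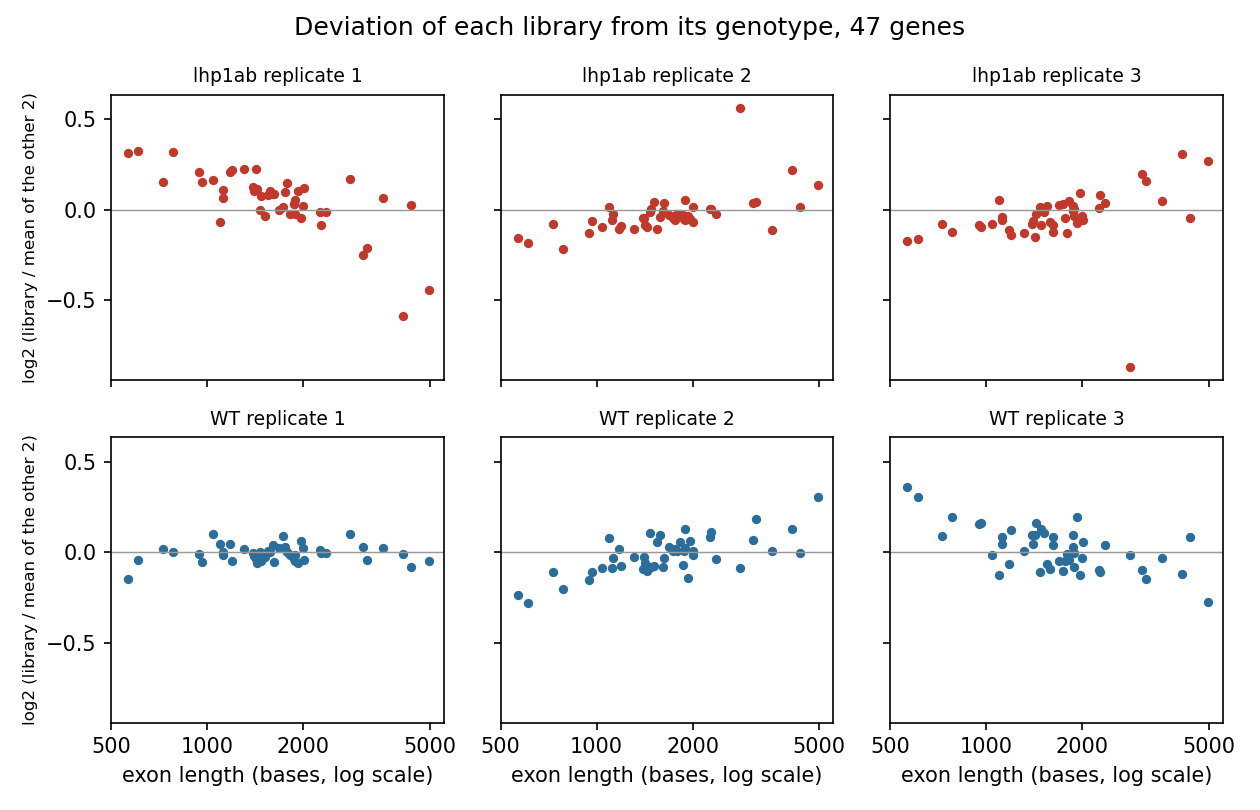
Log2 ratio of each library to the mean of the other 2 libraries of its genotype, against exon length in bases on a log axis, with 1 point for each of the 47 genes and 1 panel per library (lhp1ab above, WT below). Points fall from left to right in lhp1ab replicate 1 (Spearman -0.68) and WT replicate 3 (-0.53), climb in replicate 2 of both genotypes and in lhp1ab replicate 3, and are level in WT replicate 1.

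Exon length was also set against the difference between genotypes. The log2 fold change had a Spearman correlation with exon length of -0.11 across the 47 genes, of -0.24 across the 93 genes of both lists and of -0.04 across the 17988 tested genes. The median ratio of lhp1ab to WT was 2.28 in the 15 longest and 2.03 in the 15 shortest of the 47, or 2.50 and 1.98 without lhp1ab replicate 1. The median coefficient of variation of the 47 genes was 4.40% in lhp1ab and 4.29% in WT. For the 93 genes it was 5.94% in lhp1ab and 3.42% in WT. Of the 47, 27 varied more in lhp1ab than in WT, and the like share of tested genes is not given here.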

How the data were processed

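Each library has 1 deposited table of raw counts per gene, the output of featureCounts 1.6.4 as run by the authors (per the file headers). Reads were counted over exons on the reverse strand (setting 2) at a minimum mapping quality of 30. Reads over several genes were counted for each. The settings allowed multi-mapping reads, but whether any of them passed the quality limit was not checked. Trimmomatic 0.38 and STAR are listed in the submitters' processing notes. Gene models were lifted over to melon genome release 4.0, per the file headers.

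From these counts, CPM on library totals, RPKM on the deposited exon lengths, ranks and shares were computed. Standard deviations are over 3 libraries. Members and lists were chosen with earlier results of these data known. edgeR 4.0.16 (R 4.3.3; TMM, default filter, quasi-likelihood F-test, two-sided, no covariate, Benjamini-Hochberg threshold 0.05) gave the calls, and was tested on simulated data. The simulated data held far fewer changed genes than were called here, so that test does not cover calls on this scale. Alternatives were DESeq2 1.42.0, limma 3.58.1 (voom), other scalings, filters and limits, a replicate block and left-out libraries. Genes were named by rules on level, ratio, WT rank and nearness to a limit. Genes 67, 113, 120 and 124 were also picked for their spread. Product lists were not run, as no identifier was annotated.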

Additional observations from a re-analysis of the deposited data

How the results depend on the processing

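TMM and RLE scaling chose the 47 genes again, and leaving out each library gave 47 to 48 genes, of which 43 to 47 were the same. Other limits moved the number. The 100 highest gave 29 genes, 20 of them among the 47, and the 200 highest gave 72, with 41 shared. Ranking by RPKM gave 59 genes and shared 31. The difference in share, 2.84 points, was 3.15 points when totals left out the 10 most abundant genes of each library. The part of the difference over the upper 150 of lhp1ab held by the 47 genes was then 50.1% in place of 37.0%. With each library left out these values ran from 2.77 to 2.88 points and from 35.3 to 40.5%. Testing against a 1.5-fold change called 7222 genes in place of 13579. It called 39 of the 47 higher in place of 47, beside 20.9% of tested genes in place of 36.9%. The single-exon share of the 47 genes differed by -9.18 points from all genes and by 1.55 points from tested genes, so its direction depended on the comparison. The other alternatives kept the direction and stayed within the replicate spread, the binomial interval or 1.5 times. Leaving out lhp1ab replicate 1 and WT replicate 3 together was added after the data were seen.

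The labels link the genotypes by replicate number alone. Same-numbered libraries deviated from their genotypes with correlations of -0.0025, 0.14 and -0.22, so the numbers were not taken to pair the samples. With the replicate block 13297 of the 17988 tested genes were called, 6514 of them higher in lhp1ab. All 47 were among those called higher, which follows from the way they were chosen.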

Other observations

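Over all tested genes, the deviation of lhp1ab replicate 1 from its genotype correlated at 0.30 with that of WT replicate 3 and at -0.33 with that of WT replicate 2. Over tested genes the deviations of these libraries had Spearman correlations with exon length of -0.43 in lhp1ab replicate 1, -0.30 in WT replicate 3 and 0.32 in WT replicate 2. In lhp1ab replicate 3 it was 0.42, and its deviation correlated at 0.25 with that of WT replicate 2 and at -0.22 with that of WT replicate 3. The cause was not tested.

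The 150 most abundant genes of WT held nearly the same share in both genotypes, 23.2% ± 1.30 in lhp1ab and 22.96% ± 0.157 in WT (SD, n = 3 each). The difference of 0.225 points turned to -0.522 points without lhp1ab replicate 1.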
